A study of Rattus norvegicus with 18 samples.

Results

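The comparison set rat brain labelled as a CLCF1 knock-down with inhaled carbon monoxide (CLCF1) against brain of untreated wild-type rats (NC), to describe what differed from untreated brain. All 6 CLCF1 and all 6 NC libraries entered it, chosen by their labels, which makes 12 of the 18 libraries of the study. The NC libraries are of wild-type genotype with no treatment entered, the CLCF1 libraries carry the knock-down genotype and the gas, and 6 further wild-type libraries received the gas alone (CO). For the gas, the series describes 40 min at 1000 ppm CO followed by 20 min at 3000 ppm, which brought carboxyhemoglobin above 60%. Clcf1 was knocked down or overexpressed with lentivirus in cultured bone marrow-derived macrophages, and such cells were given to rats whose own macrophages had been depleted with liposomes. The labels do not say which of these steps each brain went through, which brain region was taken, how long after the gas, or the age, sex or strain of the rats. Because the CLCF1 and NC groups differ in both the gas and the knock-down, the share of each in a difference cannot be told apart here.

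As background, Clcf1 (cardiotrophin-like cytokine factor 1) is a secreted cytokine of the interleukin-6 family. It acts through the receptor subunits Cntfr, Lifr and Il6st (gp130), which activate STAT proteins and their feedback inhibitor Socs3. Carbon monoxide binds hemoglobin and starves the brain of oxygen, and neurons and glia answer acute injury with fast, transient immediate early genes and with cytokines. Macrophages and microglia remove dying cells by efferocytosis and can present antigen on MHC class II proteins.

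The 12 libraries held 15.1 to 20.3 M counts each. Neuronal, astrocytic and myelin genes were high in all of them: Snap25 ran from 1710 to 2410 CPM (counts per 1 M counts of the library, scaled by TMM), Gfap from 1180 to 1950 CPM and Mbp from 3610 to 12500 CPM, as brain tissue holds. Libraries 3 to 6 of each group added no gene to those counted in its libraries 1 and 2. Of 13670 genes with no count in NC libraries 1 and 2, 0 had a count in any of NC libraries 3 to 6, and of 14517 such genes in CLCF1, again 0. In libraries 1 and 2 of the other groups, 2.9% to 4.28% of these NC genes and 5.11% to 8.92% of these CLCF1 genes had a count. Across 11643 genes, a log2 CPM correlation of 0.914 was found between CLCF1 libraries 1 and 2, 0.945 to 0.951 between either of these and libraries 3 to 6, and 0.942 to 0.945 among libraries 3 to 6. In NC, across 11535 genes, it was 0.949 between libraries 1 and 2, 0.95 to 0.959 between these and libraries 3 to 6, and 0.937 to 0.94 among libraries 3 to 6. The labels do not explain this, so libraries 1 and 2 are given beside 3 to 6 for many of the genes below. Other genes are given by the fold change over 6 libraries alone, which does not show whether the groups overlapped. Whether libraries 3 to 6 are independent of libraries 1 and 2 is not known, and if they are not, each p-value over 6 libraries a group is too small. A fit that leaves out 1 library would then keep others that depend on it, and would be no independent check. The labels do not state separate animals for the libraries, and a p-value here is therefore about the variation among these libraries alone.

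Clcf1 itself (chromosome 1, 219468675 to 219472654 in the table's coordinates) was near the detection limit in both groups. NC library 1 had 0.133 CPM, library 2 0.324 CPM and libraries 3 to 6 0.0561 to 0.17 CPM. CLCF1 library 1 had 0.119 CPM, library 2 0.0487 CPM and libraries 3 to 6 0 to 0.161 CPM, and the groups overlapped. The log2 fold change was −1.49 ± 0.60 (SE) with an edgeR adjusted p of 0.126, and a two-sided exact permutation test over samples, with 924 label orders, gave p = 0.0325, where the smallest it can give is 0.00216. In the CO libraries Clcf1 averaged 6.23 CPM. Its receptor genes did not pass: Cntfr 0.0019 ± 0.14, Lifr −0.26 ± 0.48 and Il6st 0.66 ± 0.30 (log2 fold change ± SE). Of 21 genes tested in the list of the ligand, its receptors and JAK-STAT feedback, 1 passed (4.76%, beside 9.26% of all genes). This was Socs3, which fell by 1.69 ± 0.42 on the log2 scale (edgeR adjusted p = 0.0179). Socs3 stood at 1.26 CPM in NC library 1, 2.5 CPM in library 2 and 1.35 to 5.35 CPM in libraries 3 to 6, against 1.07, 1.41 and 0.217 to 0.861 CPM in CLCF1. The groups overlapped in libraries 1 and 2 and did not overlap in libraries 3 to 6.

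Across all genes, 1536 of 16581 tested passed an edgeR adjusted p of 0.05, which is 9.26%. Of these, 734 were higher in CLCF1 (4.43%) and 802 lower (4.84%), with median log2 fold changes of 1.22 and −1.22. Libraries 1 and 2 alone gave 2 genes of 16820 (0.0119%), the MHC gene RT1-CE16 and LOC100911372, both higher, and 418 at an unadjusted p under 0.05, where 5% of the genes would be 841. Libraries 3 to 6 alone gave 736 genes (4.42%). The fit of libraries 1 and 2 gave a fold change for 1504 of the 1536 genes, and the direction was the same for 1503 of these. The other passing genes were not fitted there. In libraries 1 and 2, both CLCF1 values lay beyond both NC values in the called direction for 1154 of the 1536 genes, or 75.1%. Among all genes tested, libraries 1 and 2 did not overlap between the groups for 27.3%. These libraries are part of the 6 that made the calls, so the shared direction is a description.

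**Figure D1:**
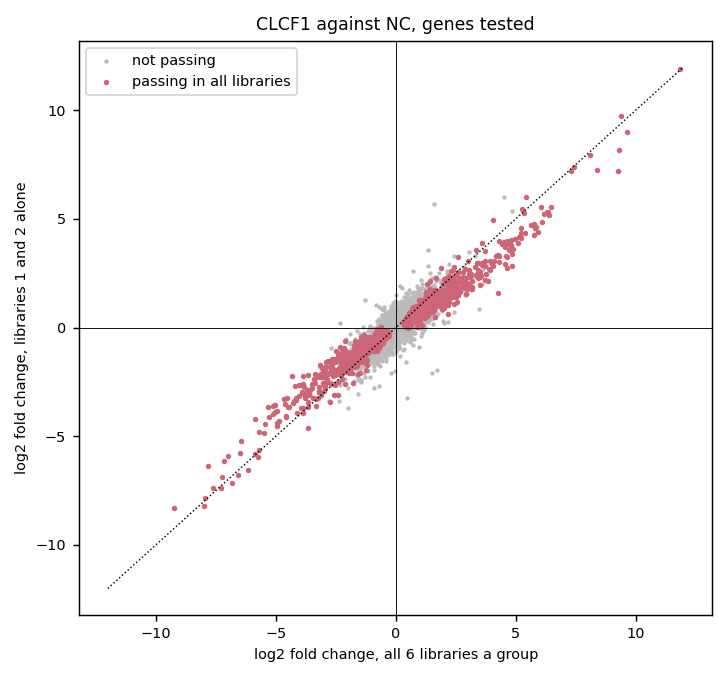
Each point is a gene tested in CLCF1 against NC, with its log2 fold change over all 6 libraries a group on the x axis and over libraries 1 and 2 alone on the y axis; the dotted line marks equal values. The passing genes (red) follow the line with a smaller size in libraries 1 and 2, where the medians were 0.86 for the higher and −0.94 for the lower genes.

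Immediate early genes, which encode transcription factors and signal inhibitors switched on within minutes of stimulation, were mostly lower in CLCF1 than in untreated brain. Of 43 tested, 11 fell and 1 rose, or 27.9%, against 9.26% of all genes, and the list's median log2 fold change was −0.42 against 0.01 for all genes. The median was −0.50 in libraries 1 and 2 and −0.59 in libraries 3 to 6. In libraries 1 and 2, both CLCF1 values lay below both NC values for 23 of the 43 genes, against 11.7% of all genes. Without 1 library the list had 6 to 11 falls, 6 without CLCF1 library 3 or NC library 4 and 7 without CLCF1 library 6. In CO against NC, which uses the same NC libraries, the median was 0.68.

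The smallest p-values of the list were those of Egr2, Cyr61, Dusp1 and Klf2. Egr2 (chromosome 20, 22454463 to 22459025), a zinc-finger transcription factor of activity and of myelinating cells, had 17, 18.3 and 13.7 to 36.1 CPM in NC library 1, library 2 and libraries 3 to 6. In CLCF1 it had 3.52, 2.68 and 0.922 to 3.28 CPM. Every CLCF1 library was below every NC library, a separation of the 6 and 6 libraries that 5.63% of all genes tested showed in either direction. The log2 fold change was −3.02 ± 0.30 with an edgeR adjusted p of 2.25e-05. CO libraries averaged 23.6 CPM, within the NC range.

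Cyr61 (also Ccn1), a secreted matrix protein induced by serum and stretch, had 27.7, 16.3 and 12.8 to 34.7 CPM in NC and 1.13, 3.07 and 0.108 to 2.58 CPM in CLCF1. The groups did not overlap, and the log2 fold change was −3.64 ± 0.49 (edgeR adjusted p = 0.000403). Here the CO libraries, at a mean of 3.79 CPM, were also below NC, by 2.55 on the log2 scale. Dusp1, a phosphatase that switches off MAP kinases, had 118, 93.6 and 50.2 to 125 CPM in NC and 30.2, 40.4 and 7.8 to 39.9 CPM in CLCF1. It fell by 1.66 ± 0.30 on the log2 scale (edgeR adjusted p = 0.00276) with no overlap, while CO averaged 122 CPM. Klf2, a transcription factor of endothelium and resting lymphocytes, had 22.4, 21.9 and 16.3 to 26.1 CPM in NC and 11.7, 11.2 and 5.76 to 13.7 CPM in CLCF1, with no overlap. Its log2 fold change was −1.16 ± 0.19.

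The other genes of the list are named after their values were seen. Npas4, an activity-induced transcription factor of neurons, fell by 1.74 ± 0.38 on the log2 scale, from 9.54, 16.2 and 10.6 to 18.7 CPM in NC to 4.11, 7.54 and 0.977 to 5.22 CPM in CLCF1, with no overlap. Egr2, Cyr61, Dusp1, Klf2 and Npas4 passed in each of the 12 fits that left out 1 library. The calls of Fos, Egr1, Gadd45b, Klf4, Dusp4 and Arl5b did not. Fos, a subunit of the transcription factor AP-1, had 70.6, 53.1 and 27.1 to 98 CPM in NC and 17.3, 27.2 and 0.596 to 26.4 CPM in CLCF1, and 172 CPM on average in CO. Its change of −1.86 ± 0.56 had an edgeR adjusted p of 0.0417, which reached 0.0855 among the 7 fits that lost it (without CLCF1 library 1, 3 or 4, or NC library 1, 2, 4 or 5). Egr1 had 184, 251 and 146 to 298 CPM in NC and 120, 168 and 118 to 218 CPM in CLCF1, and −0.61 ± 0.17, lost without CLCF1 library 4, 5 or 6 or NC library 2 or 4 (adjusted p up to 0.0681). Gadd45b (−1.46 ± 0.39) lost its call without CLCF1 library 3, 5 or 6 or NC library 4 or 6 (adjusted p up to 0.0603), and Klf4 (−0.80 ± 0.23) in 8 of the 12 fits (up to 0.067). Dusp4 (−0.66 ± 0.18) and Arl5b (−1.08 ± 0.29) lost theirs without CLCF1 library 3 or 6, Dusp4 also without NC library 5 (up to 0.0543) and Arl5b without NC library 4 (up to 0.0547). Arc (−0.76 ± 0.26), Nr4a1 (−0.80 ± 0.39) and Junb (−0.11 ± 0.40) did not pass. The single rise was in Fosl1, at 1.07 ± 0.32, whose call was lost in 8 of the 12 fits, without CLCF1 library 2, 3, 4 or 5 or NC library 2, 3, 4 or 5 (adjusted p up to 0.102).

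**Figure D2:**
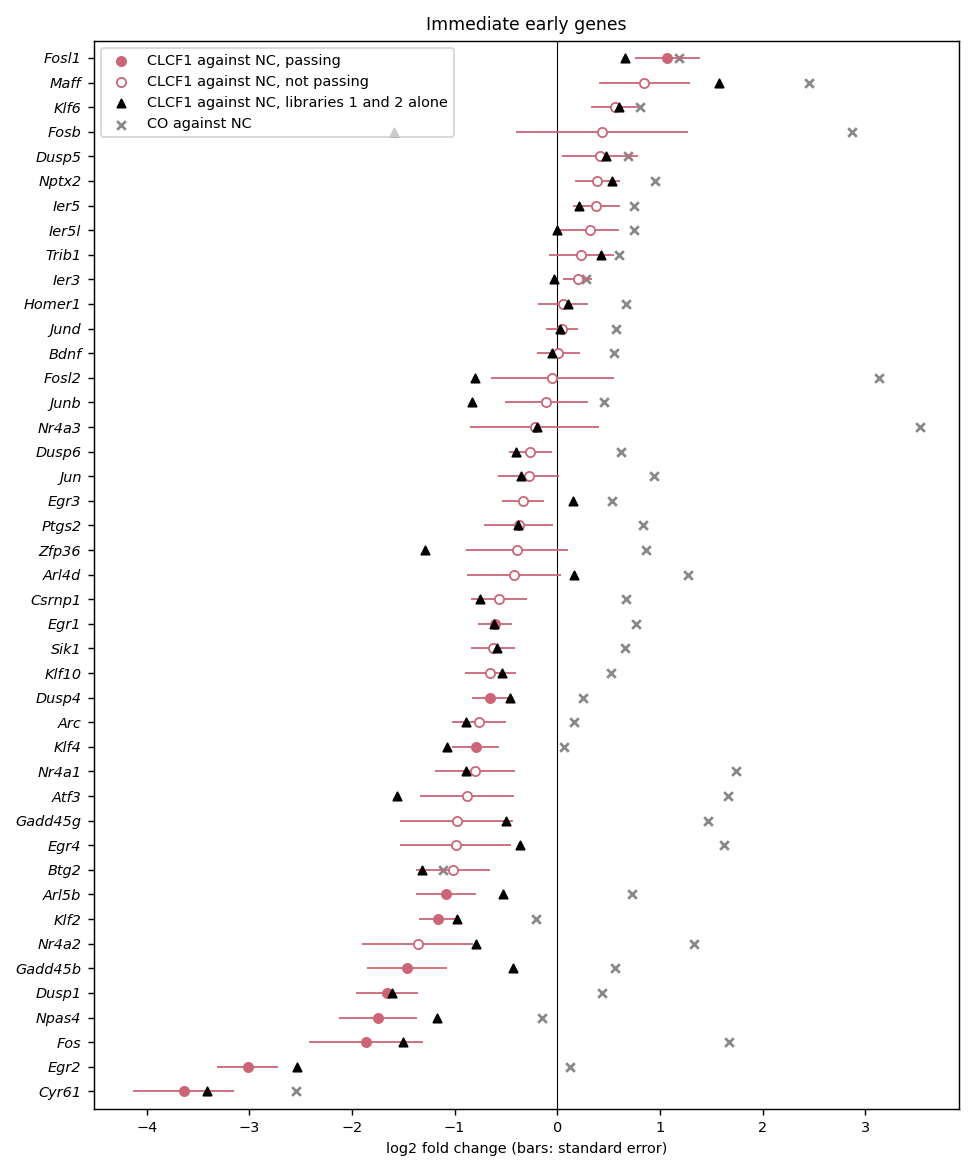
The 43 immediate early genes tested, with the log2 fold change of CLCF1 against NC (red; bars are standard errors; filled where the adjusted p passed 0.05), the same in libraries 1 and 2 alone (black triangles) and CO against NC (grey crosses). In CLCF1 30 of the 43 lie below 0, while most crosses lie to the right; both comparisons share the NC libraries.

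Promoter sequence from RefSeq (rat GRCr8, the 250 bases before the start of the gene) was matched for 8 of the 11 immediate early genes that fell. Printed are Egr2, Dusp1 and Cyr61, which were among the 4 genes of the list with the smallest p-values. They differ in which known response element they hold. Klf2, also among these 4, had no window. Capitals mark a CArG box, the binding motif of serum response factor, in Egr2 (20:21054442-21054691, minus strand, 83 bases before the start) and the cyclic AMP element TGACGTCA in Dusp1 (10:17184603-17184852, plus strand, 124 bases before the start); the Cyr61 window (2:237225690-237225939, minus strand) holds neither.
Egr2: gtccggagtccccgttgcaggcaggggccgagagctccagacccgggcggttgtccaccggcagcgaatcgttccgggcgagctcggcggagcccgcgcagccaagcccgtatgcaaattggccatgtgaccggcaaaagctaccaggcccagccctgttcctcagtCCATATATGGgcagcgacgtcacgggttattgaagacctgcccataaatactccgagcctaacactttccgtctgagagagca
Dusp1: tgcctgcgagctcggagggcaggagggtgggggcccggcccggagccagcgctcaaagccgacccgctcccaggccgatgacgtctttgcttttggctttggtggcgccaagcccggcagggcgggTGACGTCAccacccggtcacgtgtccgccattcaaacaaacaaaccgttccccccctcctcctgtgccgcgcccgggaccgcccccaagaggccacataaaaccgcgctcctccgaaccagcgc
Cyr61: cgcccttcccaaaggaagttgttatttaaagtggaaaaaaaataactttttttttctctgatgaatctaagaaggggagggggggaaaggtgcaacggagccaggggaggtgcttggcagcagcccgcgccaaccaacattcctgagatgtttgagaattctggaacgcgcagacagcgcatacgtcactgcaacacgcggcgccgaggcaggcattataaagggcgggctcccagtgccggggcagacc

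Among the 8 windows, searched on both strands, 2 held a CArG box (Egr2 and Egr1) and 2 the cyclic AMP element (Dusp1 and Arl5b). Of 33469 rat windows of the same length, 1.5% held a CArG box and 1.59% the cyclic AMP element, and 3.06% held either. The hypoxia element ACGTG was in 4 of the 8 (Dusp1, Gadd45b, Arl5b and Egr1) and in 16.6% of all windows. The E-box CACGTG, which contains ACGTG, was in 3 of the 8 (Dusp1, Gadd45b and Arl5b) and in 5.59% of all, and neither is marked in the sequences. The heat shock element GAANNTTC was in 0 of the 8 and in 7.23% of all, and the glucocorticoid element in 0 of the 8 and in 0.012% of all. The CArG search was added after the list's values were seen. These matches describe the letters of the window only.

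MHC class II genes, which encode the proteins that present extracellular antigen to helper T cells, were higher in CLCF1. Of 8 tested, 5 rose and 0 fell (62.5% against 9.26% of all genes). The median log2 fold change was 1.37, with RT1-Ba at its bound also 1.37, and 0.96 in libraries 1 and 2 and 1.74 in libraries 3 to 6. In libraries 1 and 2, both CLCF1 values lay above both NC values for 5 of the 8 genes, against 15.5% of all genes. The MHC genes of the rat (RT1) form families of near-identical copies that differ between strains, so the split of reads among them is uncertain.

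RT1-Bb, the beta chain of one class II molecule, had 1.46, 0.139 and 0.112 to 1.07 CPM in NC library 1, library 2 and libraries 3 to 6, and 12.6, 12.7 and 5.6 to 22.6 CPM in CLCF1. It rose by 4.30 ± 0.57 on the log2 scale (edgeR adjusted p = 0.000375), and no library of one group reached the other. Its alpha chain RT1-Ba (chromosome 20, 4066132 to 4070721) had no count in any NC library and 2.98, 9.29 and 2.91 to 6.55 CPM in CLCF1, at least 174-fold higher with 3 counts set over the NC group, and at least 77-fold in libraries 1 and 2. The CO libraries had 0.953 to 4.92 CPM of RT1-Bb and 0 to 2.22 CPM of RT1-Ba. Cd74, the invariant chain that guides class II molecules through the cell, had 31.9, 30.8 and 11.9 to 35.7 CPM in NC and 69.8, 59.5 and 42.1 to 74.7 CPM in CLCF1. It rose by 1.12 ± 0.28 (edgeR adjusted p = 0.0195), again with no overlap, and CO averaged 34.8 CPM. RT1-DOb, which tunes peptide loading, rose by 3.59 ± 0.49 from 0.0663, 0.278 and 0 to 0.281 CPM to 1.61, 1.36 and 0.7 to 3.07 CPM. It had 0.126 to 0.387 CPM in the CO libraries. RT1-Da, named after its values were seen, rose by 1.29 ± 0.34 from 10.2, 14.2 and 7.25 to 12.6 CPM to 28.4, 17.7 and 15.9 to 32.9 CPM, a call lost without NC library 4 or 6 (adjusted p up to 0.0543). RT1-Db1 (1.46 ± 0.53) and RT1-DMb (0.51 ± 0.71) did not pass.

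MHC class I genes and their peptide loading partners, which display intracellular peptides to killer T cells, split in both directions. Of 21 tested, 3 rose and 6 fell (42.9%, beside 9.26% of all genes). The median was 0.04, with 0.04 in libraries 1 and 2 and −0.16 in libraries 3 to 6, and it was −0.38 without CLCF1 library 1. RT1-CE16 (chromosome 20, 3791407 to 3794027) had no count in NC and 29.6, 23.9 and 22 to 36.5 CPM in CLCF1. With 3 counts set over the NC group this is at least 935-fold higher, and at least 315-fold in libraries 1 and 2. It was 1 of the 2 genes that passed in libraries 1 and 2 alone. In CO it averaged 12.7 CPM. RT1-CE10, also at 0 in all NC libraries, had 0.655, 2.82 and 0.753 to 3.82 CPM in CLCF1.

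The class I genes that fell included RT1-A2, with 24.5, 27.9 and 20.5 to 37.6 CPM in NC and 4.71, 7.88 and 0.753 to 6.88 CPM in CLCF1. Its log2 fold change was −2.37 ± 0.37 (edgeR adjusted p = 0.000975), with no overlap, and CO averaged 16.6 CPM. RT1-T24-3 fell by 2.97 ± 0.51, from 3.31, 5.42 and 3.82 to 7.98 CPM to 0.834, 0.584 and 0.0543 to 1.99 CPM. RT1-CE5 had 454 counts over the NC libraries and 3 over the CLCF1 libraries, a ratio of 158 (95% counting interval 53.9 to 771). RT1-O1 (−3.47 ± 0.66), RT1-N2 (−2.66 ± 0.63) and RT1-N3 (−1.28 ± 0.35), named after their values were seen, fell as well, RT1-N3 only while CLCF1 libraries 3, 5 and 6 and NC libraries 4 and 5 were all kept (adjusted p up to 0.0619). The invariant light chain B2m (0.15 ± 0.15) and the peptide transporter Tap1 (0.45 ± 0.25) did not pass. Tapbp, which holds class I molecules at that transporter, rose by 0.86 ± 0.20, from 12, 14.6 and 11.6 to 15.6 CPM to 23.7, 18.2 and 23.8 to 30.8 CPM.

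Over all listed genes, 6 had no count in any NC library and at least 10 counts in each CLCF1 library. They were RT1-CE16, RT1-Ba, RT1-CE10, AC094348.2 and 2 unnamed loci. In the opposite direction there were 3, Lilrb3l, RGD1560034 and AABR07028917.1. These genes were named after their values were seen.

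**Figure D3:**
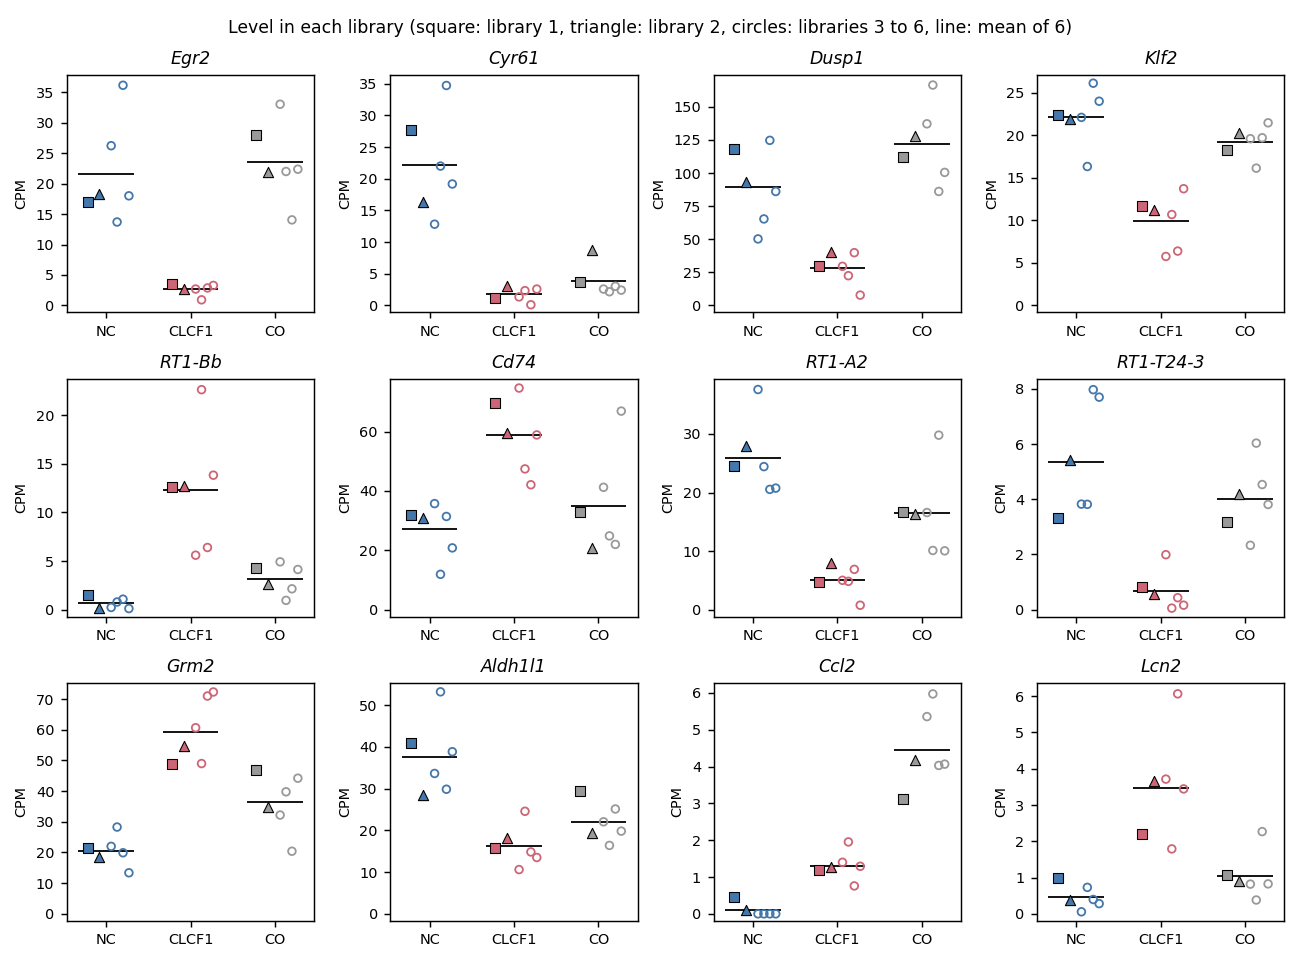
CPM of 12 genes in each NC, CLCF1 and CO library, with library 1 as a square, library 2 as a triangle, libraries 3 to 6 as circles and the mean of the 6 as a line. For all 12 genes the 6 CLCF1 libraries lie apart from the 6 NC libraries, and squares and triangles lie among the circles of their group or beside them.

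Of 21 cytokine and chemokine genes tested, 1 rose and 1 fell, or 9.52%, close to the 9.26% of all genes. Ccl2, the chemokine that draws monocytes, had 0.464 CPM in NC library 1, 0.0926 CPM in library 2 and 0 in libraries 3 to 6, and 1.19, 1.27 and 0.758 to 1.95 CPM in CLCF1. It rose by 3.83 ± 0.63 on the log2 scale (edgeR adjusted p = 0.00134), by 2.15 in libraries 1 and 2, while CO averaged 4.45 CPM. Cxcl2, a neutrophil chemokine, had 40 counts over the NC libraries and none in any CLCF1 library. NC was at least 14-fold higher, and at least 4.52-fold in libraries 1 and 2. Il1b had 0.596, 0.417 and 0 to 0.113 CPM in NC and in CLCF1 0.179 CPM in library 1 and 0 in the others, which did not pass, and CO averaged 4.57 CPM. Ccl3 (0.08 ± 0.99) did not pass, with CO at 5.2 CPM on average.

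NF-κB genes, named in the title of the study, passed at about the share of all genes. Of 30 subunits, inhibitors and kinases, 1 rose and 2 fell (10.0%, beside 9.26% of all genes). The median was 0.19, against 0.01 for all genes. Nfkb1, the p105 and p50 subunit, had 23.2, 26.4 and 21 to 34.2 CPM in NC and 16, 24.7 and 12.7 to 18.3 CPM in CLCF1 and fell by 0.64 ± 0.17. Relb, a subunit of the alternative pathway, rose by 0.74 ± 0.21 from 4.84, 3.94 and 2.42 to 5.83 CPM to 6.32, 6.28 and 5.9 to 10.6 CPM. Ikbkg, the regulatory subunit of the IκB kinase, fell by 1.21 ± 0.37. The call of Nfkb1 was lost without CLCF1 library 4, 5 or 6 or NC library 6 (edgeR adjusted p up to 0.0581). Those of Relb and Ikbkg were lost in 7 and 9 of the 12 fits without 1 library (up to 0.0892 and 0.101). Rela (0.36 ± 0.14) and Nfkbia (0.69 ± 0.50) did not pass.

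Efferocytosis genes had 1 rise and 4 falls among 38 tested (13.2%, beside 9.26% of all genes), with a median of 0.07. The genes that fell with every single library left out were Scarf1, Pparg and Stab2. Scarf1, a scavenger receptor, had 3.11, 3.7 and 3.39 to 6.8 CPM in NC and 1.61, 0.73 and 0.431 to 1.51 CPM in CLCF1, a change of −2.24 ± 0.34 (edgeR adjusted p = 0.000756) with no overlap. Stab2, a receptor for phosphatidylserine on dying cells, had 1.33, 2.5 and 1.02 to 2.02 CPM in NC and 0, 0.438 and 0 to 0.217 CPM in CLCF1. Pparg, a nuclear receptor of lipid handling, had 0.663, 0.695 and 0.506 to 0.898 CPM in NC and 0.238, 0.0973 and 0.0538 to 0.163 CPM in CLCF1. A CLCF1 library held 0 to 9 counts of Stab2 and 1 to 4 of Pparg, near the detection limit. The bridging and receptor genes Mertk (0.19 ± 0.19), Axl (0.25 ± 0.18) and Gas6 (0.07 ± 0.16) did not pass. The call of Ucp2 (−0.40 ± 0.11) was lost without CLCF1 library 4 or 6 or NC library 1 or 3 (edgeR adjusted p up to 0.0632), and that of Gulp1, the engulfment adaptor (0.68 ± 0.19), in 8 of the 12 fits (up to 0.0737).

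Microglial genes showed 2 rises among 22 tested (9.09%). Slc2a5, a fructose transporter typical of microglia, rose by 1.08 ± 0.22 from 4.17, 5.51 and 2.55 to 5.51 CPM to 7.69, 7.98 and 7.74 to 10.9 CPM, and the groups did not overlap. C1qa, a chain of complement C1q, had 70.2, 55.2 and 41.2 to 59.2 CPM in NC and 93.4, 69 and 67.8 to 110 CPM in CLCF1, and rose by 0.67 ± 0.16. Aif1 (0.15 ± 0.25), Cx3cr1 (−0.25 ± 0.27), P2ry12 (−0.40 ± 0.24) and Tmem119 (−0.02 ± 0.29) did not pass. In bulk tissue, fewer cells of a type and less RNA per cell cannot be told apart. Of 14 genes of monocytes and border macrophages, 1 rose (7.14%, beside 9.26% of all genes), the platelet and macrophage chemokine Pf4 (2.12 ± 0.58). Its call was lost in 6 of the 12 fits without 1 library, with an edgeR adjusted p of up to 0.0601. The macrophage genes Cd163 (−0.19 ± 0.41), Mrc1 (0.03 ± 0.29) and Lyz2 (0.32 ± 0.31) did not pass.

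Genes of other blood cells were few and low. Of 16 neutrophil symbols 5 could be tested, 6 had no count in any of the 12 libraries, and the summed level was 7.18 to 10.4 CPM in NC and 12.7 to 20.7 CPM in CLCF1. The granule and inflammatory genes Lcn2, S100a9 and Mmp9 rose and the protease gene Prtn3 fell (80.0% of those tested, beside 9.26% of all genes). Lcn2, also made by reactive astrocytes, had 0.994, 0.37 and 0.0563 to 0.73 CPM in NC and 2.2, 3.65 and 1.79 to 6.07 CPM in CLCF1, a rise of 2.88 ± 0.49 (edgeR adjusted p = 0.0016). S100a9 rose by 2.65 ± 0.63, from 0.663, 0.0463 and 0.0561 to 0.843 CPM to 1.01, 2.38 and 1.45 to 2.39 CPM. Mmp9 (0.87 ± 0.24) lost its call without CLCF1 library 5 or 6 or NC library 1 or 5 (edgeR adjusted p up to 0.0591). Cd8a, a co-receptor of killer T cells, had 0.0663, 0.463 and 0.112 to 0.339 CPM in NC and 2.62, 1.9 and 2.06 to 3.68 CPM in CLCF1. It rose by 3.44 ± 0.47, while the T cell gene Cd3e (−1.14 ± 0.62) did not pass. The part of these cells in the MHC result was not tested.

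Hemoglobin transcripts differed between libraries of one group. Hbb had 316 CPM in NC library 1, 0.0926 CPM in library 2 and 11.3 to 158 CPM in libraries 3 to 6, and in CLCF1 0.358 CPM, 0.633 CPM and 0 in libraries 3 to 6. It fell (−9.24 ± 1.46, edgeR adjusted p = 0.00227), but NC library 2 lay below both CLCF1 libraries 1 and 2, so the groups overlapped. No CO library had a count of Hbb. Hbb has near-identical copies. The summed level of the erythroid list was 418, 63.4 and 94.6 to 232 CPM in NC and 69.7, 60.3 and 59.3 to 74.4 CPM in CLCF1.

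Interferon-responsive genes had 3 rises among 34 tested (8.82%), Igtp, Ifit3 and Gbp5. Igtp, an interferon-induced GTPase, had 8.22, 15.3 and 8.48 to 11.8 CPM in NC and 18.1, 15.2 and 14.2 to 21.8 CPM in CLCF1, a change of 0.72 ± 0.19 lost without CLCF1 library 4 or NC library 1 or 5 (edgeR adjusted p up to 0.0553). Ifit3 (1.16 ± 0.32) lost its call without CLCF1 library 3 or 4 or NC library 2 or 6 (adjusted p up to 0.0658), and Gbp5 (1.40 ± 0.41) in 9 of the 12 fits (up to 0.0865). Of 21 complement genes 2 rose (9.52%, beside 9.26% of all genes), C1qa and C1r (0.79 ± 0.24). The call of C1r was lost in 10 of the 12 fits (edgeR adjusted p up to 0.103).

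Genes induced by glucocorticoid, the hormone of the stress axis, had 5 rises and 1 fall among 25 tested (24.0%, against 9.26% of all genes), with a median of 0.11. The fall was that of Dusp1 and 1 of the rises that of Lcn2, genes already described in other lists. Without 1 library the rises numbered 2 to 5, 2 without CLCF1 library 5 or NC library 5 and 3 without NC library 1, 2, 3 or 4, and the median ran from −0.10 to 0.16. In CO against the same NC libraries the median was 1.01. Map3k6, a stress kinase, had 1.33, 0.926 and 0.113 to 2.14 CPM in NC and 1.01, 5.74 and 3.66 to 11.5 CPM in CLCF1, and rose by 2.44 ± 0.52 (edgeR adjusted p = 0.00771). CLCF1 library 1 lay within the NC range. Mt1, a metal-binding metallothionein, had 9.74, 9.26 and 3.54 to 23.5 CPM in NC and 25.9, 29.1 and 14.9 to 60.0 CPM in CLCF1 and rose by 1.26 ± 0.35. Its call was lost without CLCF1 library 5 or NC library 1, 2 or 5 (edgeR adjusted p up to 0.0811). Those of Mt2A (1.51 ± 0.43) and Cdkn1a (1.41 ± 0.43) were lost in 6 and 7 of the 12 fits (up to 0.0799 and 0.104). Sgk1 (0.20 ± 0.45) and Fkbp5 (−0.03 ± 0.23) did not pass, and CO averaged 158 CPM of Sgk1 against 7.63 to 102 CPM in the NC libraries.

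Hypoxia-inducible factor targets showed 0 rises and 2 falls among 32 tested (6.25%), near the 9.26% of all genes. Slc2a3, the neuronal glucose transporter, had 2.85, 1.67 and 1.35 to 3.04 CPM in NC and 0.655, 0.681 and 0.163 to 2.31 CPM in CLCF1 (−1.59 ± 0.45). Ndrg1 had 204, 120 and 146 to 349 CPM in NC and 123, 116 and 79.8 to 176 CPM in CLCF1 (−0.77 ± 0.23). Both calls were lost in 7 of the 12 fits without 1 library (edgeR adjusted p up to 0.0683 and 0.0936). Vegfa (−0.07 ± 0.15) and Hmox1 (0.11 ± 0.16) did not pass. Of 26 heat shock genes 7.69% passed, also near the 9.26% of all genes. Hspa8 rose by 1.12 ± 0.28 and Dnajb1 fell by 0.64 ± 0.15. Hspa8, a chaperone with many processed copies in the genome, had 8.75, 31.7 and 7.13 to 26.3 CPM in NC and 39.7, 34.5 and 35.8 to 55 CPM in CLCF1, with no overlap. Of 29 genes of the unfolded protein and integrated stress response (10.3% passed), Atf5 (1.30 ± 0.34) and Pdia3 (0.40 ± 0.11) rose and Creld2 fell by 0.59 ± 0.15. Atf5 lost its call without CLCF1 library 4 (edgeR adjusted p = 0.0506) and Pdia3 in 6 of the 12 fits (up to 0.0812).

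Several lists had no gene past the threshold in edgeR. Of 36 genes of glycolysis and the citrate cycle 0 passed, 6 had an unadjusted p under 0.05, and DESeq2 and limma-voom called 0 each. Of 13 oligodendrocyte precursor genes 0 passed, with 2 at that unadjusted p and 0 by either other tool. Of 29 fibroblast and meningeal genes 0 passed, with 1 and again 0. Of 15 inflammasome genes 0 passed, 5 had an unadjusted p under 0.05, DESeq2 called Il1b and limma-voom called Aim2 and Pycard, which are named after their values were seen. Of 11 protein genes of the mitochondrial genome 0 passed in edgeR, 1 had that unadjusted p, DESeq2 called 1 and limma-voom 0.

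**Figure D4:**
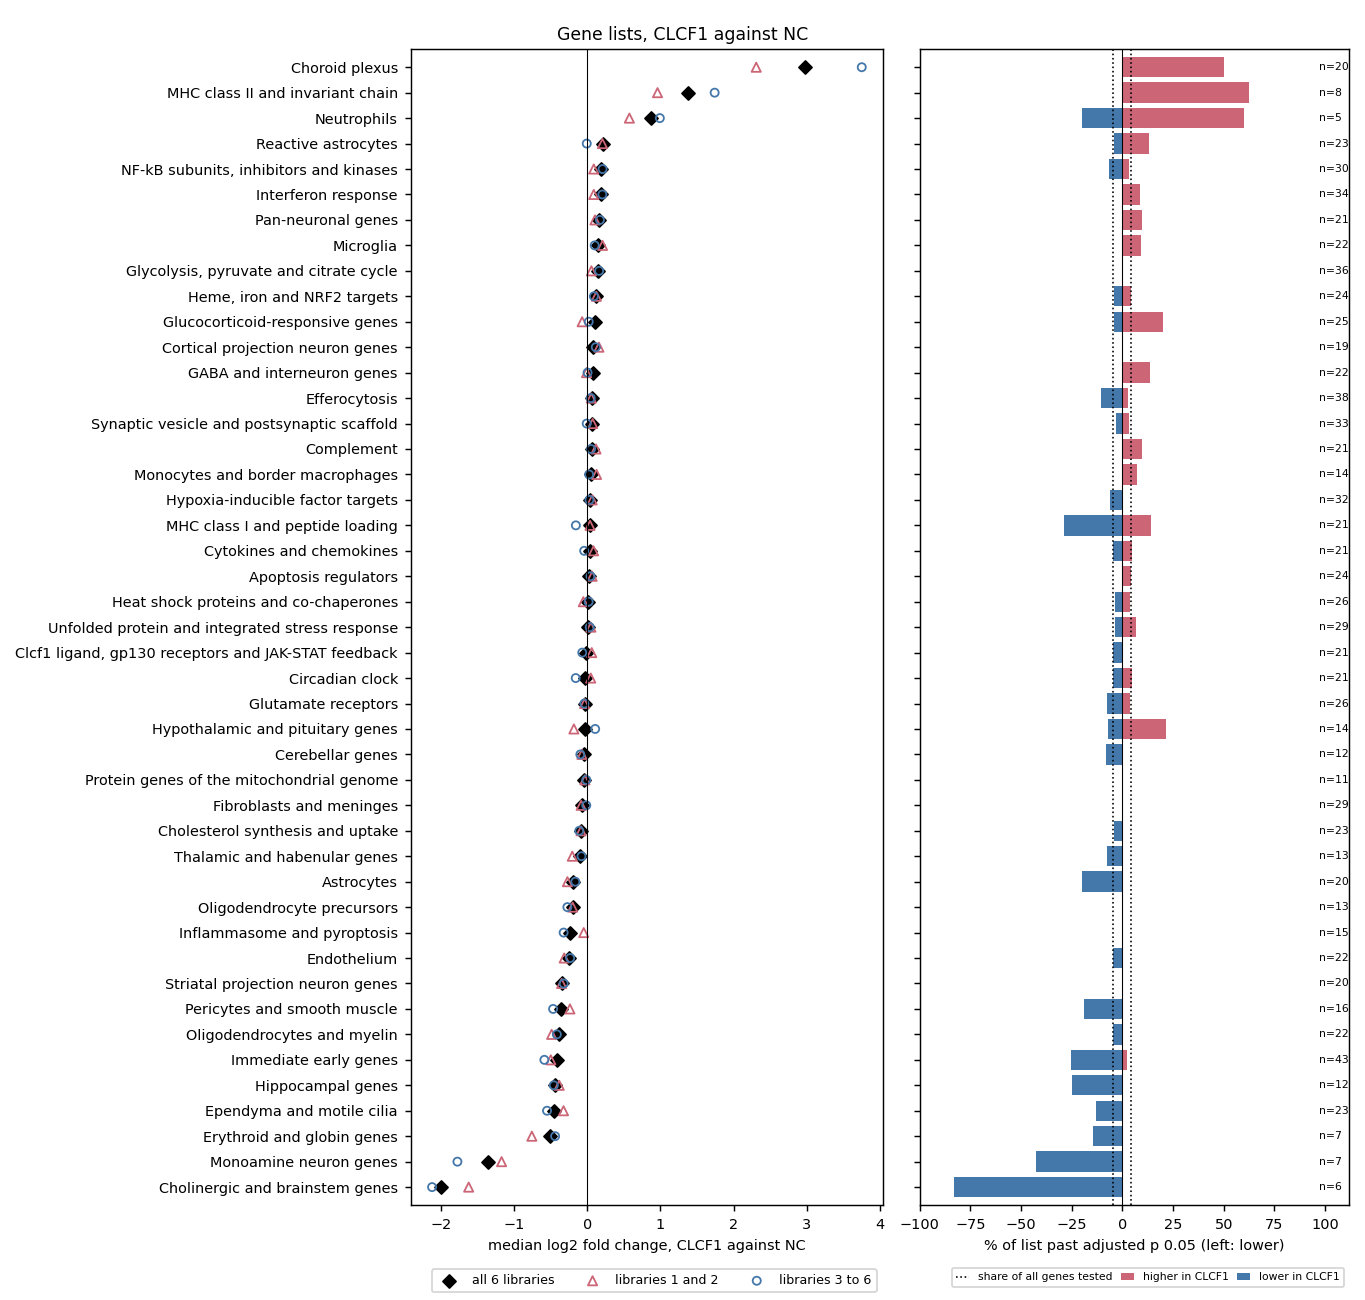
Left, the median log2 fold change of CLCF1 against NC of each gene list with 5 or more genes tested, in all libraries (black diamonds), libraries 1 and 2 (red triangles) and libraries 3 to 6 (blue circles); right, the percent of each list that passed, higher to the right and lower to the left, with dotted lines at the shares of all genes (4.43% and 4.84%). Choroid plexus and MHC class II genes have the highest medians, 2.98 and 1.37, and cholinergic and brainstem genes the lowest, −2.0.

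Astrocyte genes had 4 falls and 0 rises among 20 tested (20.0%), with a median of −0.19. Aldh1l1, a folate enzyme that marks astrocytes, had 41, 28.5 and 29.9 to 53.2 CPM in NC and 15.7, 18.2 and 10.6 to 24.6 CPM in CLCF1. It fell by 1.21 ± 0.20 on the log2 scale (edgeR adjusted p = 0.00134) with no overlap, and CO averaged 22.0 CPM. Ntsr2, a neurotensin receptor of astrocytes, had 231, 214 and 200 to 262 CPM in NC and 192, 149 and 102 to 179 CPM in CLCF1 and fell by 0.68 ± 0.14, with no overlap. The call of Atp13a4 (−0.68 ± 0.20) was lost without CLCF1 library 1 or 6 or NC library 1, 4 or 5 (edgeR adjusted p up to 0.0743), and that of the glutamate transporter Slc1a2 (−0.83 ± 0.25) in 9 of the 12 fits (up to 0.0848). Among 23 reactive astrocyte genes (17.4% passed, beside 9.26% of all genes), Lcn2, S1pr3 and Ptx3 rose and Fbln5 fell. Ptx3 (1.5 ± 0.46) lost its call in 9 of the 12 fits (edgeR adjusted p up to 0.103) and Fbln5 (−0.70 ± 0.19) without CLCF1 library 3 or NC library 1 (up to 0.0543). S1pr3, a sphingosine phosphate receptor, had 6.89, 7.59 and 0.337 to 3.62 CPM in NC and 9.89, 42.7 and 12.9 to 76.4 CPM in CLCF1, and rose by 2.91 ± 0.62.

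Lists of mural and ciliated cells held falls, while 4.84% of all genes tested were lower. The endothelial list was near that share, with 1 fall among 22 tested (4.55%). This was Itm2a, a membrane protein of endothelium, which fell by 0.88 ± 0.22. Of 16 pericyte and smooth muscle genes Rgs5, Tagln and Notch3 fell (18.8%). All 3 calls were lost without CLCF1 library 3, that of Rgs5 (−1.08 ± 0.29) also without NC library 5 (edgeR adjusted p up to 0.0549). Tagln (−0.85 ± 0.23) lost its call in 4 of the 12 fits and Notch3 (−0.84 ± 0.24) in 5 (up to 0.0576 and 0.0915). The list for ependyma and motile cilia had 3 falls and 0 rises among 23 tested (13%). It had 6 falls and 1 rise without CLCF1 library 1, 4 and 2 without NC library 1, and 3 and 3 without NC library 2. Across the 12 fits without 1 library its falls numbered 3 to 6 and its rises 0 to 3. Dnah9, a dynein arm of cilia, had 12.2, 6.25 and 7.3 to 11.9 CPM in NC and 4.53, 3.65 and 2.06 to 5.33 CPM in CLCF1, a change of −1.38 ± 0.32 with no overlap. Tekt4 fell by 0.80 ± 0.18 and Spag17 by 1.48 ± 0.39.

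Among glutamate receptors, 1 of 26 rose and 2 fell (11.5%, beside 9.26% of all genes). Grm2 (chromosome 8, 115344999 to 115358046), a presynaptic receptor that dampens glutamate release, had 21.6, 18.5 and 13.4 to 28.3 CPM in NC. In CLCF1 it had 48.7, 54.7 and 49 to 72.3 CPM. The groups did not overlap, and the log2 fold change was 1.53 ± 0.19 (edgeR adjusted p = 0.000287), and 1.34 in libraries 1 and 2. CO averaged 36.4 CPM. Grid1, a delta receptor that organises synapses, fell by 1.11 ± 0.21, from 14.8, 23.2 and 17 to 42.2 CPM to 11.3, 14.4 and 7.8 to 11.9 CPM. Grm7, another presynaptic receptor, fell by 1.11 ± 0.21 as well, from 20.7, 29.9 and 24.8 to 37 CPM to 19.8, 16.1 and 8.24 to 16.1 CPM.

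Pan-neuronal genes had 2 rises among 21 tested (9.52%), Elavl4 and Syn1. Elavl4, an RNA-binding protein of neurons, had 69.5, 82.5 and 40.3 to 80.9 CPM in NC and 127, 90.9 and 105 to 148 CPM in CLCF1, a rise of 0.86 ± 0.16 (edgeR adjusted p = 0.00343) with no overlap. Syn1 (0.55 ± 0.14) lost its call without CLCF1 library 4 or NC library 6 (adjusted p up to 0.0605). Of 33 synaptic vesicle and scaffold genes 6.06% passed, beside 9.26% of all genes. The adhesion gene Nrxn2 rose by 0.62 ± 0.16 and the vesicle gene Vamp1 fell by 0.95 ± 0.23. Among 22 GABA and interneuron genes (13.6% passed), Cck (0.63 ± 0.16), Lhx6 (0.96 ± 0.27) and Dlx1 (1.59 ± 0.49) rose. Their calls were lost in 1, 6 and 7 of the 12 fits (edgeR adjusted p up to 0.0504, 0.0759 and 0.128), Cck without CLCF1 library 4. Cortical and striatal projection neuron lists, of 19 and 20 genes, had 0 genes past the edgeR threshold. At an unadjusted p under 0.05 there were 5 and 4. DESeq2 called 3 and 1 of them, and limma-voom 3 and 1.

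Among the gene lists, the highest and the lowest median were those of brain regions, and in several such lists the libraries of one group differed from each other. Choroid plexus genes, which mark the tissue that makes cerebrospinal fluid, had 10 rises and 0 falls among 20 tested (50%, beside 9.26% of all genes). Their median was 2.98 in all libraries, 2.31 in libraries 1 and 2 and 3.75 in libraries 3 to 6. Their summed level was 571, 536 and 371 to 796 CPM in NC, but 7118 CPM in CLCF1 library 1, 429 CPM in CLCF1 library 2 and 1553 to 4804 CPM in CLCF1 libraries 3 to 6. CLCF1 library 2 therefore lay below NC libraries 1 and 2. Ttr, the thyroid hormone carrier of this tissue, had 28.6, 96.1 and 0.113 to 101 CPM in NC and 5703, 5.4 and 702 to 3724 CPM in CLCF1. Its rise of 6.05 ± 1.53 (edgeR adjusted p = 0.0185) stood beside an overlap of the groups. Sostdc1, a secreted inhibitor of BMP and Wnt signals, had 0.795, 2.04 and 0 to 2.86 CPM in NC and 68.7, 0 and 21.1 to 78.6 CPM in CLCF1. Kl, the co-receptor klotho, rose by 6.32 ± 0.91, from 0.398, 0.695 and 0 to 0.169 CPM to 43.6, 1.12 and 4.68 to 29.4 CPM, with no overlap. F5, coagulation factor V, rose by 5.91 ± 0.79, from 0.928, 0.602 and 0 to 0.393 CPM to 29, 3.36 and 7.15 to 44.4 CPM, and Tmem72 by 5.38 ± 0.81. Msx1 and Slc4a5, 2 of the 10 and named after their values were seen, lost their calls without CLCF1 library 4 (edgeR adjusted p = 0.0506) and without NC library 4, 5 or 6 (up to 0.0527). Without CLCF1 library 1 the list had 10 rises and 1 fall, and without CLCF1 library 2 it had 10 rises and 0 falls.

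Genes of the olfactory bulb showed the opposite order within CLCF1. Eomes (chromosome 8, 127144903 to 127151493), the transcription factor Tbr2 of mitral and tufted cells, had 0.133, 0 and 0 to 0.0566 CPM in NC and 0.179, 20.2 and 4.04 to 24.8 CPM in CLCF1. CLCF1 had 1347 counts and NC 3, a ratio of 429 (95% counting interval 146 to 2080). Tbx21, of the same cells, had 0, 0.463 and 0 to 0.17 CPM in NC and 0.894, 18.4 and 7.86 to 15.7 CPM in CLCF1, a rise of 6.39 ± 0.88 (edgeR adjusted p = 0.000408). Trh, the thyrotropin-releasing hormone that bulb and hypothalamus both make, had 2.32, 5.7 and 0.394 to 1.64 CPM in NC and 5.84, 45.6 and 11.8 to 24.5 CPM in CLCF1, a rise of 3.43 ± 0.60. Frmd7 had 1814 counts in CLCF1 and 2 in NC, a ratio of 867 (240 to 7160), and Ms4a15 1212 counts and 1, a ratio of 1160 (207 to 45800), each with CLCF1 library 1 at 0.417 CPM. A list of olfactory bulb neuron genes, written after these values were seen, had 7 rises and 1 fall among 14 tested, beside 9.26% of all genes. It holds Eomes, Tbx21 and Trh, 3 of the 7 that rose, whose values prompted it. It summed to 257, 342 and 268 to 310 CPM in NC and to 332, 1335 and 736 to 960 CPM in CLCF1. Thus CLCF1 library 1 was high in choroid plexus genes and library 2 in bulb genes, and libraries 3 to 6 were high in both. The part of tissue sampling in these results was not tested.

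**Figure D5:**
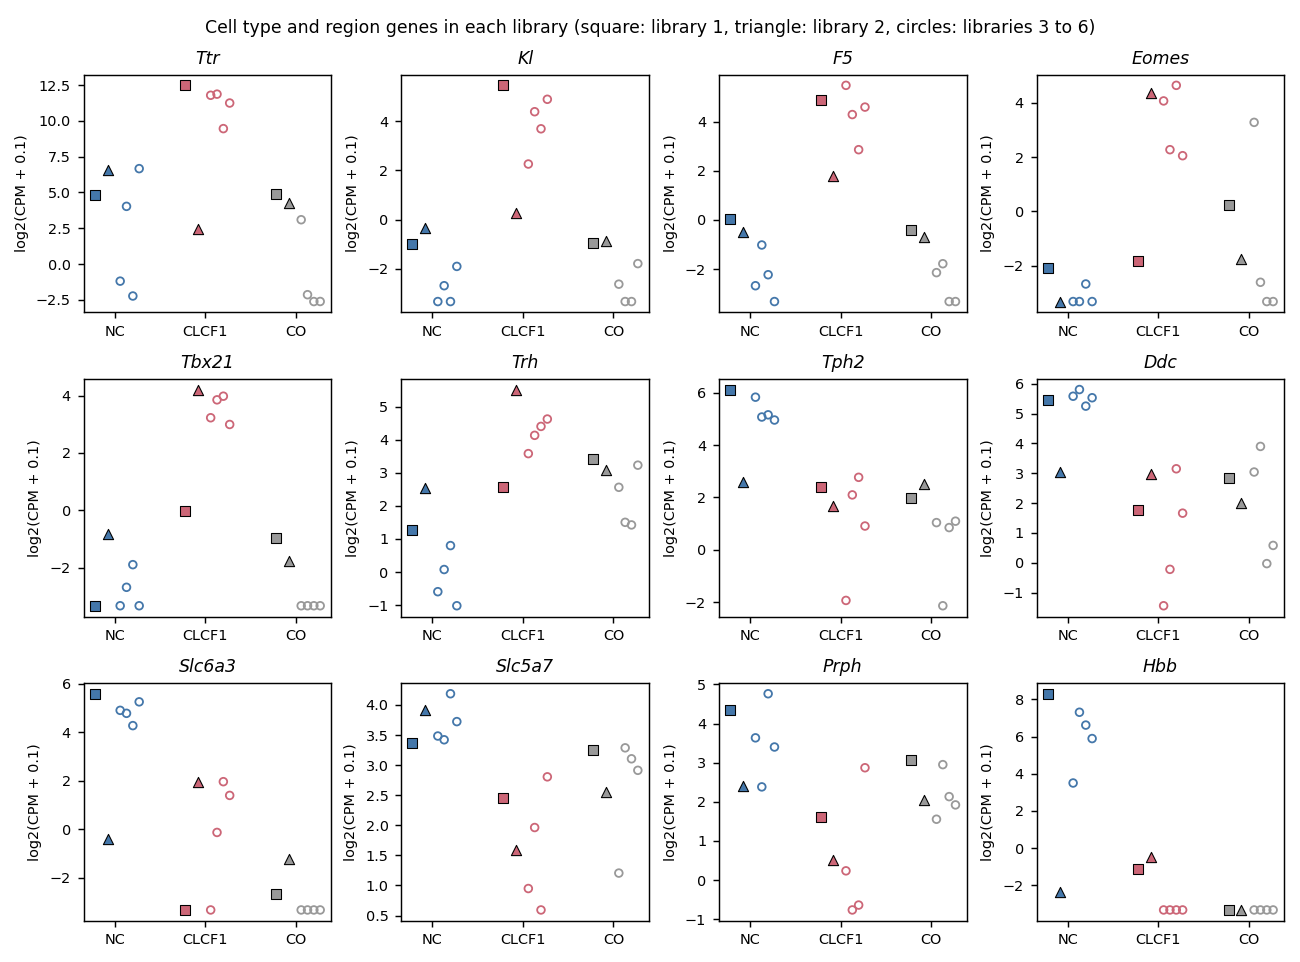
Level of 12 region and cell type genes as log2(CPM + 0.1) in each NC, CLCF1 and CO library, with library 1 as a square, library 2 as a triangle and libraries 3 to 6 as circles. Ttr and Kl are high in CLCF1 library 1 and low in library 2, Eomes and Tbx21 the reverse, and Tph2, Ddc, Slc6a3 and Hbb are low in NC library 2 beside the other NC libraries.

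Monoamine neuron genes had 3 falls and 0 rises among 7 tested (42.9%, beside 9.26% of all genes), with a median of −1.36. Tph2, the enzyme that starts serotonin synthesis in the raphe, had 69.6, 5.93 and 31 to 56.8 CPM in NC and 5.18, 3.07 and 0.161 to 6.72 CPM in CLCF1. It fell by 3.46 ± 0.67 on the log2 scale (edgeR adjusted p = 0.00383), but NC library 2 lay within the CLCF1 range, and CO averaged 2.53 CPM. Slc6a3, the dopamine transporter, had 47.8, 0.648 and 19.2 to 37.9 CPM in NC and 0, 3.8 and 0 to 3.79 CPM in CLCF1. Ddc, the shared decarboxylase, had 43.8, 8.2 and 37.9 to 55.7 CPM in NC and 3.28, 7.79 and 0.269 to 8.77 CPM in CLCF1. Without NC library 2, 6 of 10 genes tested fell, and without any 1 of the CLCF1 libraries 6 of 10 fell as well. Th, which the bulb also makes, did not pass (0.82 ± 0.78).

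Cholinergic and brainstem genes had 5 falls among 6 tested (83.3%, beside 9.26% of all genes). Of the 17 symbols of that list, 8 had no count in any of the 12 libraries. Slc5a7, the choline transporter, had 10.2, 15 and 10.6 to 18.1 CPM in NC and 5.36, 2.92 and 1.41 to 6.89 CPM in CLCF1, a change of −1.81 ± 0.36 (edgeR adjusted p = 0.00503) with no overlap. Chat, which makes acetylcholine, fell by 2.18 ± 0.52, from 4.11, 8.38 and 3.45 to 5.91 CPM to 3.16, 0.973 and 0.217 to 1.94 CPM. Prph, an intermediate filament of motor and peripheral neurons, fell by 2.56 ± 0.59 and the glycine transporter Slc6a5 by 1.39 ± 0.36. Prph had 20.3, 5.19 and 5.11 to 27 CPM in NC and 2.98, 1.31 and 0.488 to 7.21 CPM in CLCF1. Slc6a5 had 4.11, 3.7 and 2.41 to 4.61 CPM in NC and 2.56, 1.07 and 0.7 to 1.95 CPM in CLCF1. The groups overlapped for both genes. Glra1, a glycine receptor, fell by 2.47 ± 0.67, a call lost without CLCF1 library 4, 5 or 6 or NC library 1 (edgeR adjusted p up to 0.0581). Lhx8, a transcription factor of basal forebrain cholinergic neurons, had 0 CPM in NC library 1 and 6.76 CPM in NC library 2.

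Hippocampal genes had 3 falls among 12 tested (25.0%). Prox1, a transcription factor of dentate granule cells, had 19.5, 7.18 and 11.4 to 19.3 CPM in NC and 6.02, 5.01 and 2.05 to 10.7 CPM in CLCF1 and fell by 1.46 ± 0.37 (edgeR adjusted p = 0.0179). The calls of Neurod1 (−1.12 ± 0.33) and C1ql2 (−2.02 ± 0.63) were each lost in 9 of the 12 fits, with an adjusted p of up to 0.0739 and 0.0935. Among 14 hypothalamic and pituitary genes 3 rose and 1 fell (28.6%, beside 9.26% of all genes). Besides Trh, the stress peptide Crh rose by 1.42 ± 0.33, from 5.83, 5.42 and 4.15 to 5.57 CPM to 6.67, 15 and 5.42 to 24.1 CPM. The rise of Avp (4.27 ± 1.28) rested on CLCF1 library 5, at 54.8 CPM against 0.438 to 3.58 CPM in the other CLCF1 libraries, and was lost in 7 of the 12 fits (edgeR adjusted p up to 0.325).

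Other genes named for the size of their change or for passing in libraries 1 and 2 alone included Arhgap36, Irx1, Mab21l2, Grifin, Impad1, Ebna1bp2 and LOC100911372. Arhgap36 had 5.77, 3.01 and 2.38 to 8.89 CPM in NC and 0.238, 0 and 0 to 0.0538 CPM in CLCF1, a change of −6.46 ± 0.97 (edgeR adjusted p = 0.000756) with no overlap. Irx1, a homeobox gene, fell by 5.86 ± 1.03, from 9.08, 0.972 and 1.12 to 2.88 CPM to 0.179, 0 and 0 to 0.108 CPM. Mab21l2 fell by 4.96 ± 0.74 and the galectin-related gene Grifin by 5.46 ± 0.92. Mab21l2 had 7.36, 1.3 and 1.41 to 7.93 CPM in NC and 0.0596, 0.341 and 0 to 0.215 CPM in CLCF1. Grifin had 27.3, 5.32 and 7.52 to 33.5 CPM in NC and 0.358, 1.17 and 0 to 0.543 CPM in CLCF1. The groups did not overlap for either gene. Impad1 (also Bpnt2), a Golgi phosphatase, had 5.9, 7.22 and 5.43 to 12.5 CPM in NC and 0.417, 0.341 and 0 to 0.269 CPM in CLCF1. It fell by 5.29 ± 0.65 with no overlap, and the CO libraries averaged 0.291 CPM. Ebna1bp2, a nucleolar protein, rose by 6.19 ± 1.05, from 0.331, 0.139 and 0 to 0.337 CPM to 0.596, 17.4 and 4.06 to 16.6 CPM. LOC100911372, the other gene that passed in libraries 1 and 2 alone, had 9.21, 8.7 and 0.617 to 29 CPM in NC and 62.7, 52.8 and 28.3 to 120 CPM in CLCF1, a rise of 2.40 ± 0.62 with an overlap in libraries 3 to 6.

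The lists not yet described held few calls. In those named below, 4.17% to 9.52% of the genes tested passed, beside 9.26% of all genes. Of 21 circadian clock genes, Npas2 rose (0.51 ± 0.16) and Bhlhe41 fell (−0.55 ± 0.15), calls lost in 7 and 5 of the 12 fits without 1 library (edgeR adjusted p up to 0.11 and 0.0629). Of 24 heme, iron and NRF2 genes, Osgin1 rose (2.59 ± 0.67), a call lost without CLCF1 library 6 (edgeR adjusted p = 0.0507), and the iron transporter Slc11a2 fell (−0.54 ± 0.13). Osgin1 had 1.46, 0.509 and 0.0563 to 0.792 CPM in NC and 0.655, 5.01 and 1.13 to 6.3 CPM in CLCF1. CLCF1 libraries 1 and 3 lay within the NC range. Of 24 apoptosis regulators only cytochrome c, Cycs, rose (0.35 ± 0.09), a call lost in 6 of the 12 fits (edgeR adjusted p up to 0.0634). Of 23 cholesterol genes the synthase Lss fell by 0.68 ± 0.18. Of 13 thalamic and habenular genes Lhx9 fell (−4.93 ± 1.03). It had 5.83, 0.185 and 0.679 to 2.64 CPM in NC and 0, 0.243 and 0 to 0.0543 CPM in CLCF1. NC library 2 lay below CLCF1 library 2, so the groups overlapped.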

How the data were processed

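RNA-seq of 12 rat brain libraries was compared, with 6 CO libraries in the same fit. The values are raw counts, whole numbers with no normalization, in a single table of 34873 genes that the authors deposited. Per the labels' protocols, libraries were made from total RNA with a SMARTER mRNA-Seq kit. Strandedness, the aligner and the counter: not given in the sources used here. Reads of genes that overlap, or lie antisense to each other, may therefore be mixed. The submitters' processing notes name the mouse builds GRCm38 and mm10, although the gene IDs are of rat, so gene coordinates follow the table and carry no build. A library held 15.1 to 20.3 M counts, and unnamed loci took 1.21% to 1.62% of them.

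The main test was the quasi-likelihood test of edgeR 4.0.16 under R 4.3.3 (TMM, filterByExpr, robust quasi-likelihood fit of all 18 libraries, Benjamini-Hochberg over 16581 genes, threshold 0.05). A standard error is the fold change divided by the square root of F. The common dispersion was 0.0972, and the test was run on simulated data as a check. Alternatives were other filters, scalings, DESeq2 1.42.0, limma-voom 3.58.1, subsets of libraries and a replicate block.

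Groups came from the labels. Genes were named by rule: Clcf1 and its partners, the 15 largest rises and falls with a symbol, a mean of at least 1 CPM and the same direction in libraries 1 and 2 and in 3 to 6, up to 4 genes a list by smallest p, and genes passing in libraries 1 and 2 alone. The comparison, the rule and the gene lists were chosen with earlier results of these data known. Lists are described by counts and medians, with no test. Values of CO against NC use the same NC libraries and are set side by side only. Intervals and bounds cover counting error only. Promoter windows came from RefSeq, which held 1 window for 84 of the 117 named genes. A few genes the rule names are not reported here.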

Additional observations from a re-analysis of the deposited data

Results flagged for a closer look

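In 27 of 234 groups of 6 libraries, 1 library stood apart from the other 5 of its group. Its gap was above the 95% critical value of Dixon's test on CPM. For normally distributed values chance alone flags about 1 in 20. CPM values near 0 are not so distributed, so the number flagged cannot be read as an excess. In NC library 1, Frmd7 was flagged on 2 counts and Ms4a15 on 1. Each value below is the CPM of that library, with the range of the other 5.

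In NC library 1, Irx1 stood at 9.08 (others 0.972 to 2.88), Ccl2 at 0.464 (0 to 0.0926), Frmd7 at 0.133 and Ms4a15 at 0.0663 (others 0 for both). In NC library 2, Trh stood at 5.7 (0.394 to 2.32), Tbx21 at 0.463 (0 to 0.17) and Slco5a1 at 0.278 (0 to 0.0563). In NC library 3, Polr2i stood at 27.3 (0.331 to 9.88) and Socs3 at 5.35 (1.26 to 2.5). In NC library 4, Grid1 stood at 42.2 (14.8 to 24.0) and Notch3 at 27.7 (11.2 to 16.1). In NC library 5, Ndrg1 stood at 349 (120 to 204). In NC library 6, Impad1 stood at 12.5 (5.43 to 7.22), Scarf1 at 6.8 (3.11 to 4.21) and Prtn3 at 2.19 (1.16 to 1.46).

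In CLCF1 library 1, Fam19a4 stood at 0.655 (0 to 0.109) and Arhgap36 at 0.238 (0 to 0.0538). In CLCF1 library 2, Slc1a2 stood at 74.3 (34.0 to 42.2) and Lhx9 at 0.243 (0 to 0.0543). In CLCF1 library 3, Polr2i stood at 1.35 (0 to 0.358), and in library 4 Slc2a5 at 10.9 (7.69 to 8.07). Egr2 in CLCF1 library 4 was low, at 0.922 (2.68 to 3.52). In CLCF1 library 5, Avp stood at 54.8 (0.438 to 3.58) and Mt1 at 60.0 (14.9 to 29.1). In CLCF1 library 6, Relb stood at 10.6 (5.9 to 6.89), Prph at 7.21 (0.488 to 2.98) and Slc2a3 at 2.31 (0.163 to 0.681).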

How the results depend on the processing

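The 1536 genes that passed (734 higher, 802 lower) became 4292 (1998 and 2294) with no low-count filter, 2334 (1102 and 1232) in DESeq2, 736 (328 and 408) in libraries 3 to 6 alone, 2 (2 and 0) in libraries 1 and 2 alone, and 913 (428 and 485) with a log2 fold change of at least 1. Leaving out 1 library gave 1219 to 1692 genes. The replicate block gave 1477 genes. Same-numbered libraries correlated by −0.0438 to 0.0702, and 2 of 6 NC libraries correlated best with their own number. These values cannot show whether a shared number stands for a pairing or a batch. The block lost 10 of the 113 called genes named by rule, and at least 1 leave-one-out fit lost 33. In libraries 1 and 2, 2 of them passed. Scaling by library size alone moved the higher share of calls from 47.8% to 43.5%. Cntfr, at 0.0019, changed sign to −0.00145 with no filter, −0.0046 with a stricter filter, −0.00668 with DESeq2, −0.00667 with its size factors, −0.0142 by library size alone, −0.0136 with only NC and CLCF1 in the fit, −0.053 in libraries 3 to 6, and −0.0963 to 0.113 with 1 library left out, and did not pass in any of these. Counting depth limits genes below about 1 CPM, Clcf1 among them. The cause of these shifts was not tested.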
